A study of Homo sapiens with 6 samples.

Results

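The 10 genes described here are 5 members of the CCN family (CCN1, CCN2, CCN3, CCN4 and CCN5), the coactivators YAP1 and WWTR1 (the gene of TAZ), and 3 classical targets of these coactivators, namely ANKRD1, AMOTL2 and LATS2. They were taken by gene name from the gene tables, on the primary chromosomes, as 10 of 41497 named entries. Each of these names had a single entry. RNA was measured in HK-2 cells (labelled HK2), an immortalised line of human kidney proximal tubular epithelial cells with the genotype given as WT. The cells were labelled as control or as exposed to TGF-β1, both at 24 h, with 3 libraries in each group. The labels describe culture in DMEM-F12 with fetal bovine serum and antibiotics, and the methods of the study describe TGF-β treatment in serum-free medium. Whether the control cells were also without serum is not stated, so TGF-β1 and serum withdrawal cannot be told apart if they were not. The labels do not say that the libraries came from separate cultures, and p-values then measure only the spread between these libraries, which may be technical.

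CCN proteins are secreted, cysteine-rich matricellular proteins. They bind integrins, heparan sulfate proteoglycans and LRP receptors at the cell surface, and CCN2 (connective tissue growth factor) is a much-used marker of fibrosis in the kidney. YAP and TAZ are transcriptional coactivators that have no DNA-binding domain and act through the TEAD transcription factors. The Hippo kinases STK3 and STK4, with the scaffold SAV1, activate LATS1 and LATS2, which phosphorylate YAP and TAZ and keep them out of the nucleus. CCN1 and CCN2 are textbook YAP/TAZ targets, and CCN2 is also a textbook target of TGF-β signaling. The libraries measured mRNA, and neither phosphorylation nor nuclear localization of any protein was measured.

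Total counts ranged from 21.9 to 26.9 megacounts per library. Values are given as CPM (counts scaled to a common library size with TMM) for comparisons between groups, and as TPM (a scale that also divides by gene length) for comparisons between genes. On the TPM scale, which was not rescaled with TMM, the median log2 difference of all genes tested was -0.11 after TGF-β1. TGF-β1 replicate 1 stood apart from the other TGF-β1 libraries on the second principal component (26.9 against -13.2 and -15.1), which held 9.94% of the variance. Markers of the labelled cell type were few: the proximal tubule genes LRP2 and SLC22A6 had 0 reads in all 6 libraries, whereas KRT8, KRT18, KRT19, EPCAM and PAX8 were present. The 8 proximal tubule markers summed to 72.5 to 85.4 CPM in control and 49.9 to 60.7 CPM in TGF-β1 libraries, mostly GGT1. GGT1 was called lower. AQP1 (28 and 123 reads) and CUBN (34 and 61 reads) were called higher, but passed the filter only through the TGF-β1 group. SLC5A2 (36 and 23 reads) was tested and not called. SLC34A1 (14 and 3 reads) and ANPEP (3 and 3 reads) were below the filter. The 6 epithelial markers summed to 1043 to 1129 CPM in control and 1197 to 1377 CPM after TGF-β1, with KRT8 and KRT18 called higher and KRT19, EPCAM and PAX8 lower. CDH1, the remaining epithelial marker, was below the filter (6 control and 3 TGF-β1 reads). The 6 fibroblast markers summed to 59.8 to 69.2 and 56.8 to 58.1 CPM, mostly LUM. Among them PDGFRB was called higher (39 and 413 reads), LUM and THY1 (63 and 19 reads) were called lower, and PDGFRA, DCN and COL1A2 were below the filter. THY1 passed the filter only through the control group. The 4 endothelial markers summed to 0.858 to 1.60 and 0 to 0.0384 CPM, and the 4 leukocyte markers, mostly CD68, to 94.98 to 104 and 61.5 to 85.3 CPM. CDH5 was called lower (62 and 0 reads) and passed the filter only through the control group, and PECAM1, VWF and KDR were below it. CD68 and CD14 were called lower, and PTPRC and CD3E were below the filter. The part of the marker genes in the results was not tested. A change in bulk RNA cannot separate fewer cells of a kind from less RNA per cell.

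The promoter sequences of 4 targets are shown because these genes, although all classed as YAP/TAZ targets, did not move in 1 direction. Each run is 300 bases of RefSeq sequence on GRCh38.p14, from 250 bases before to 50 bases after the annotated start, read 5′ to 3′ on the strand of the gene. All 4 genes lie on the minus strand, at chr6:131951323-131951622, chr10:90921038-90921337, chr3:134374398-134374697 and chr13:21061537-21061836 in the order printed. Capitals mark the core of the TEAD motif, GGAATG or its reverse complement CATTCC.
CCN2 promoter: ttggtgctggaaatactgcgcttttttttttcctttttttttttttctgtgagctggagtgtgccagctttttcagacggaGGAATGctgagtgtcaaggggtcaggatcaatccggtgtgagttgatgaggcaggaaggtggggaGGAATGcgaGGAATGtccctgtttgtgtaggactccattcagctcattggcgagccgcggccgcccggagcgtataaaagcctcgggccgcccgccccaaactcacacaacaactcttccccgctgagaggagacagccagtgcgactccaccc
ANKRD1 promoter: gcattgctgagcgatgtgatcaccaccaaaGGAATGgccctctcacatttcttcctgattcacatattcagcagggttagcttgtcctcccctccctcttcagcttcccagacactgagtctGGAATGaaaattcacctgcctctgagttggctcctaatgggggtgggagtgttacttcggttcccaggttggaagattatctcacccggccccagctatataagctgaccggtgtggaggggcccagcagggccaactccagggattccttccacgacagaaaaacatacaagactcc
AMOTL2 promoter: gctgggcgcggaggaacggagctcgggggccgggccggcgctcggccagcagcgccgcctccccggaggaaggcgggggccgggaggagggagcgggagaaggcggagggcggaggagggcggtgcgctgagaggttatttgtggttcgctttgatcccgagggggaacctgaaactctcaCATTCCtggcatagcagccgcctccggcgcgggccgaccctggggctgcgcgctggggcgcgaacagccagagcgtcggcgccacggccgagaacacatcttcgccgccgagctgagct
LATS2 promoter: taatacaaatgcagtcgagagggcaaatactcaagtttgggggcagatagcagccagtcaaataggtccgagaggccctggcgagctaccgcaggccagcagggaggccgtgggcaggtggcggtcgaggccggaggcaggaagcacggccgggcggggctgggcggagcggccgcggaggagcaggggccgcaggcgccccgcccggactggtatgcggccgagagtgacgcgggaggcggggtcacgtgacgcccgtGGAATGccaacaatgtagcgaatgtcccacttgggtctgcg

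The CCN2 window held 3 TEAD cores, which began 169, 104 and 95 bases before the start. ANKRD1 held 2, at 220 and 128 bases before the start. AMOTL2 held 1 at 69 bases before the start, in the first of its 2 windows, and LATS2 held 1 that began 9 bases after the start. Of 35116 promoter windows searched on both strands, 14.0% had at least 1 TEAD core, 1.37% had at least 2 and 0.128% had at least 3. The short SMAD motif CAGAC (or GTCTG) occurred once in the CCN2 window, 177 bases before the start, and at 2 places in that of ANKRD1, 142 and 132 bases before the start, the second of which shares its last base with a TEAD core. It also occurred once in LATS2, beginning 43 bases after the start, once in the second AMOTL2 window and once in the first WWTR1 window. At least 1 SMAD motif was found in 45.3% of all windows. The AP-1 motif TGANTCA, found in 7.71% of windows, occurred once in ANKRD1 and overlapped no TEAD core. YAP1 had 1 TEAD core in its window, and the 2 windows of WWTR1 had none, which says only that these letters were not there. CCN1, CCN3, CCN4 and CCN5 were not in the promoter table. A match describes letters and not a bound site, and TEAD cores were present both in the CCN2 promoter and in those of targets that fell.

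The CCN family changed in composition. In control cells CCN1 was by far the most abundant member, and after TGF-β1 it fell while CCN2 and CCN3 rose, both to levels below that of CCN1. Whether the family total changed depended on the scale. Summed over CCN1 to CCN6, the family held 1966, 1912 and 1838 TPM in the control libraries and 1916, 1963 and 1911 TPM in the TGF-β1 libraries. These TPM sums overlapped (1905 ± 64.6 against 1930 ± 28.5 TPM, SD, n = 3, exact permutation p = 0.70, two-sided). On the TMM-scaled CPM, the sums were 1382, 1324 and 1246 against 1514, 1469 and 1449, all higher after TGF-β1 (1317 ± 68.4 against 1477 ± 33.3 CPM, exact permutation p = 0.10). No p below 0.10 can come from that test with 3 libraries a group.

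CCN1 (CYR61), an immediate-early matricellular protein that supports adhesion and angiogenesis, lies at chr1:85580761-85583950 on the plus strand. It was measured at 1098, 1062 and 995 CPM in control and 629, 627 and 581 CPM in TGF-β1 libraries, from 74095 and 43719 reads in all. Every TGF-β1 library was below every control library. CCN1 fell by 0.78 on the log2 scale (SE 0.06, 95% interval -0.91 to -0.65, edgeR adjusted p = 1.8e-06), from 1051 ± 52.4 to 613 ± 26.9 CPM. On the TPM scale CCN1 went from 1535 ± 49.0 to 824 ± 36.1. It remained the most abundant of the 10 genes in both groups.

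CCN2, which lies at chr6:131948176-131951372 on the minus strand, moved the other way. Its values were 170, 148 and 142 CPM in control and 467, 439 and 447 CPM in TGF-β1 libraries, with no overlap. It rose 2.94-fold (log2 change 1.56, SE 0.07, 95% interval 1.40 to 1.71, edgeR adjusted p = 2.7e-08). Its level went from 218 ± 16.7 to 591 ± 2.66 TPM.

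CCN3 (NOV), a member often described as opposing CCN2 in mesangial and other cells, lies at chr8:119416446-119424434 on the plus strand. It rose more steeply than CCN2 by point estimate, from 114, 113 and 108 CPM to 417, 403 and 420 CPM. The change was 3.71-fold (log2 1.89, SE 0.05, 95% interval 1.77 to 2.01, edgeR adjusted p = 8.9e-10). The interval did not meet that of CCN2, although the difference between the 2 genes was not itself tested. In TPM, CCN3 went from 151 ± 1.76 to 515 ± 12.95.

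**Figure D1:**
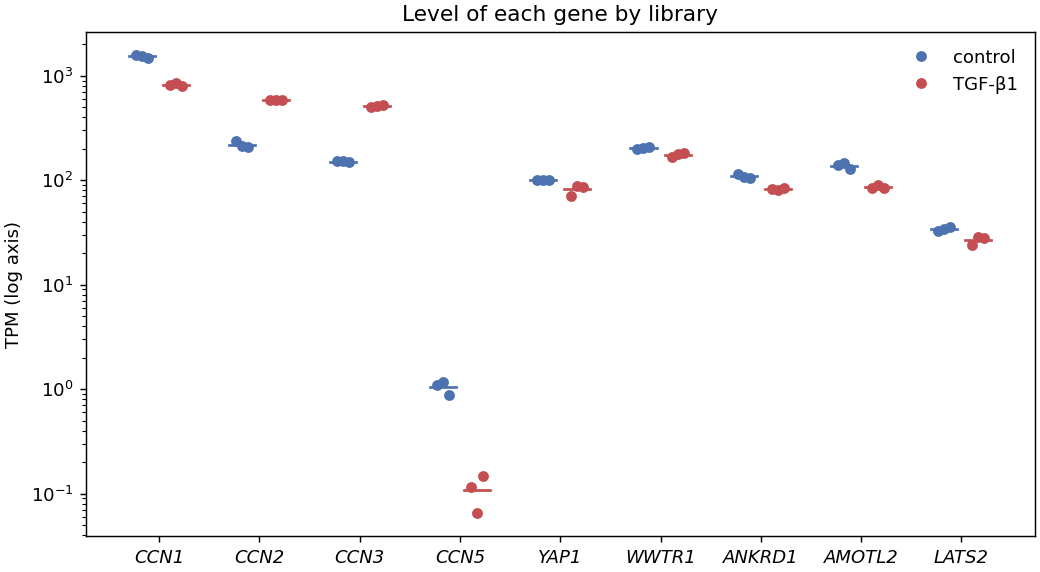
Level of each gene in each library, in TPM on a log axis. Points are libraries (blue control, red TGF-β1) and bars are group means, with 3 libraries a group. CCN1 fell, CCN2 and CCN3 rose and CCN5 averaged 1.04 TPM in control and 0.109 TPM after TGF-β1. CCN4 is not drawn because it had 0 reads in some libraries.

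CCN5 and CCN4 were the scarce members. CCN5 (WISP2), which lacks the C-terminal cystine-knot domain of the other family members, lies at chr20:44714204-44728041 on the plus strand. Reads numbered 15, 17 and 12 in the control libraries, and TGF-β1 libraries held 2, 1 and 2. The groups did not overlap, and CCN5 was 8.32-fold lower after TGF-β1 by the fit (log2 change -3.06, SE 0.46, 95% interval -4.08 to -2.03, edgeR adjusted p = 3.3e-04). From the reads alone the ratio was 0.113, with a 95% exact binomial interval of 0.0348 to 0.283 that covers counting error only. CCN5 passed the filter on low counts only through the control group, and its entry overlaps the antisense gene KCNK15-AS1 (10 and 6 reads). Whether counting used strand is not given in the sources used here.

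CCN4 (WISP1), at chr8:133190907-133231690 on the plus strand, was seen in 1, 1 and 0 control reads, and TGF-β1 libraries gave 0, 2 and 0. It was below the filter and a difference was not detectable at this depth (ratio 0.991, 95% exact interval 0.0718 to 13.7). CCN6, the remaining member of the family, had 8 reads in each group and was not tested.

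The same shift can be given as a share of CCN transcripts. CCN1 made up 80.2%, 81.0% and 80.6% of the summed CCN TPM in control and 42.8%, 43.9% and 41.4% after TGF-β1. The share of CCN2 went from 11.4 ± 0.559% to 30.6 ± 0.578%, and that of CCN3 from 7.91 ± 0.202% to 26.7 ± 0.859% (SD, n = 3). No share of these 3 genes overlapped between groups, and each gave the smallest exact permutation p, 0.10. The shares are bound to one another and restate the levels given above, so they are not separate results. CCN4, CCN5 and CCN6 each stayed under 0.1% of the family in every library.

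**Figure D2:**
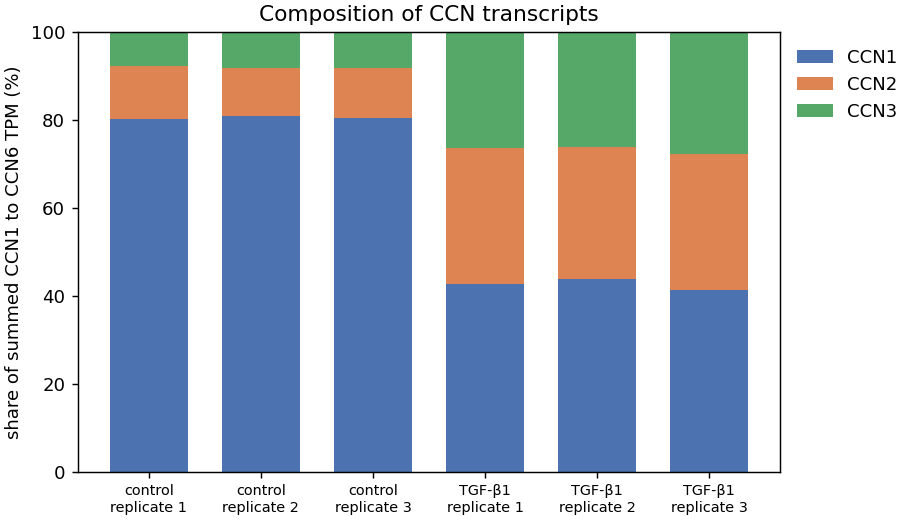
Share of the summed TPM of CCN1 to CCN6 (percent, from 0) taken by CCN1, CCN2 and CCN3 in each of the 6 libraries. CCN4, CCN5 and CCN6 are too small to see. CCN1 held about 80.6% in control and 42.7% after TGF-β1 on average.

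Within a library the scaling cancels, so the ratio of CCN2 to CCN1 was also taken per length. Its log2 value was -2.73, -2.88 and -2.84 in the control libraries and -0.47, -0.55 and -0.42 after TGF-β1. CCN1 was therefore 7.05 times CCN2 in control and 1.39 times CCN2 after TGF-β1. The difference of 2.34 on the log2 scale exceeded the SD within groups (0.077 and 0.068), and its exact permutation p was 0.10, the smallest possible. As CCN1 fell and CCN2 rose without overlap, this p followed from those values.

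The receptors and binding partners through which CCN proteins act, 9 genes of which 8 were tested, showed 4 genes higher, 3 lower and 1 not called. Over all 14860 genes tested, 22.2% were called higher and 22.1% lower at an edgeR adjusted p under 0.05. The median log2 change of the list was 0.20, beside 0.0063 over all genes tested. The remaining gene, LRP6, was below the filter on its primary entry, and its name has 2 entries, the other on an alternate contig. With the entries of a name summed, all 9 genes were tested, and 4 were higher and 3 lower.

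The receptor genes with the steepest rises encode integrin subunits. ITGAV, the αv subunit shared by several CCN-binding integrins, went from 703, 718 and 759 CPM to 1231, 1504 and 1521 CPM (log2 change 0.96, edgeR adjusted p = 4.2e-06). ITGB1, the common β1 subunit, went from 1648 ± 20.7 to 3002 ± 273 CPM (log2 0.86, edgeR adjusted p = 2.9e-06). ITGA5, which pairs with β1 as the fibronectin receptor, rose from 207 ± 2.61 to 354 ± 16.1 CPM, and LRP1, an endocytic receptor, rose from 226 ± 7.80 to 269 ± 22.7 CPM, a call that was lost without control replicate 2.

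The β3 and β5 subunits, which also pair with αv, fell. ITGB3 fell from 362 ± 11.0 to 263 ± 22.2 CPM (log2 change -0.46) and ITGB5 from 145 ± 4.83 to 117 ± 4.32 CPM (log2 change -0.31). SDC4, a heparan sulfate proteoglycan of focal adhesions, fell from 758 ± 50.2 to 556 ± 8.55 CPM (log2 change -0.45). The edgeR adjusted p of these 3 genes was at most 7.5e-04.

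The transcripts of the coactivators changed little. YAP1, at chr11:102109957-102233424 on the plus strand, was measured at 191, 187 and 185 CPM in control and 148, 175 and 173 CPM after TGF-β1. All TGF-β1 libraries were below the controls, and the lowest was TGF-β1 replicate 1. YAP1 fell by 0.18 on the log2 scale (SE 0.07, 95% interval -0.33 to -0.036, edgeR adjusted p = 0.0452). The call was lost when any 1 control library was left out (edgeR adjusted p 0.133, 0.114 and 0.0930 without replicates 1, 2 and 3). Leaving out TGF-β1 replicate 1 gave -0.12 (edgeR adjusted p = 0.0159).

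WWTR1, at chr3:149517235-149724788 on the minus strand, did not pass the test. It was at 350, 351 and 355 CPM in control and at 327, 329 and 337 CPM after TGF-β1. The ranges did not overlap, yet the log2 change was -0.09 (SE 0.05, edgeR adjusted p = 0.158). With scaling by total counts only it was called (-0.20, edgeR adjusted p = 0.00638), a setting that also lowers the median of all genes by 0.108. Its entry overlaps WWTR1-AS1, which had 24 and 20 reads.

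Per length, TAZ transcripts outnumbered YAP transcripts in every library. WWTR1 was at 203 ± 5.22 TPM and YAP1 at 100.7 ± 0.574 TPM in control, and at 175 ± 6.79 and 81.8 ± 9.61 TPM after TGF-β1. The log2 ratio of WWTR1 to YAP1 was 0.98, 1.01 and 1.04 in the control libraries and 1.24, 1.01 and 1.06 after TGF-β1. The groups overlapped (difference 0.098, exact permutation p = 0.20), and the difference was 0.029 without TGF-β1 replicate 1.

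Among the coactivators and their TEAD and VGLL partners, 10 genes of which 8 were tested, 2 were higher, 3 lower and 3 not called, beside 22.2% and 22.1% of all genes. The median log2 change was -0.01, and 0.0063 over all genes. The count of 5 called genes fell to 2 without control replicate 1 and to 3 without control replicate 2 or 3. VGLL1 had 1 read in all and VGLL2 had none.

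TEAD1, which binds DNA on behalf of YAP and TAZ, had the largest change of the 4 TEAD genes. It was at 203, 194 and 204 CPM in control and at 128, 161 and 164 CPM after TGF-β1 (log2 change -0.41, SE 0.09, edgeR adjusted p = 0.00409), and the change was -0.31 without TGF-β1 replicate 1. TEAD2 did not pass the test (log2 change 0.13, edgeR adjusted p = 0.123). TEAD3 was higher by 0.31 (edgeR adjusted p = 0.0188) and TEAD4 lower by 0.19 (log2 change -0.19, edgeR adjusted p = 0.0339).

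The calls of TEAD3 and TEAD4 were fragile. That of TEAD3 was lost with total counts only and without control replicate 1 or 3. That of TEAD4 was lost in DESeq2, with all genes kept, and when control replicate 1 or 2, or the third TGF-β1 library, was left out. Summed over the 4 genes, TEAD transcripts stood at 208 ± 0.741 TPM in control and 180 ± 6.47 TPM after TGF-β1, of which TEAD1 made up 34.0% and 27.3%.

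VGLL3, a vestigial-like cofactor that binds TEAD at the surface used by YAP, was scarce. It had 6 reads in control and 60 in TGF-β1 libraries, or 0.0886, 0.0818 and 0.0852 CPM against 0.614, 0.993 and 0.955 CPM. The groups did not overlap (log2 change 3.24, SE 0.42, edgeR adjusted p = 1.1e-04), but VGLL3 passed the filter only through the TGF-β1 group. VGLL4, a TEAD cofactor that competes with YAP, was at 20.0 ± 0.739 and 21.0 ± 2.39 CPM (log2 change 0.07, edgeR adjusted p = 0.556), and its sign turned to -0.04 with total counts only.

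The 3 other target genes fell, in contrast to CCN2. AMOTL2, an angiomotin family scaffold that holds YAP at cell junctions, lies at chr3:134355345-134375417 on the minus strand. It went from 238, 243 and 213 CPM to 159, 161 and 153 CPM, with no overlap (log2 change -0.55, SE 0.06, edgeR adjusted p = 3.3e-05). MIR6827, which lies within it, had 4 and 2 reads.

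ANKRD1, an ankyrin repeat protein used as a reporter of YAP activity, lies at chr10:90912096-90921087 on the minus strand. Its values were 63.0, 57.7 and 55.6 CPM in control and 49.4, 46.4 and 48.7 CPM after TGF-β1. Every TGF-β1 library was below every control (log2 change -0.29, SE 0.06, edgeR adjusted p = 0.00396). In TPM it went from 109 ± 5.21 to 82.5 ± 1.66.

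LATS2, both a YAP/TAZ target and the kinase that restrains them, lies at chr13:20973036-21061586 on the minus strand. It was at 60.6, 62.5 and 64.9 CPM in control and at 49.2, 55.4 and 54.8 CPM after TGF-β1. The groups did not overlap, and the log2 change was -0.24 (SE 0.06, edgeR adjusted p = 0.0108). Without TGF-β1 replicate 1, the log2 changes of AMOTL2, ANKRD1 and LATS2 were -0.57, -0.32 and -0.20, and all remained called by edgeR.

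**Figure D3:**
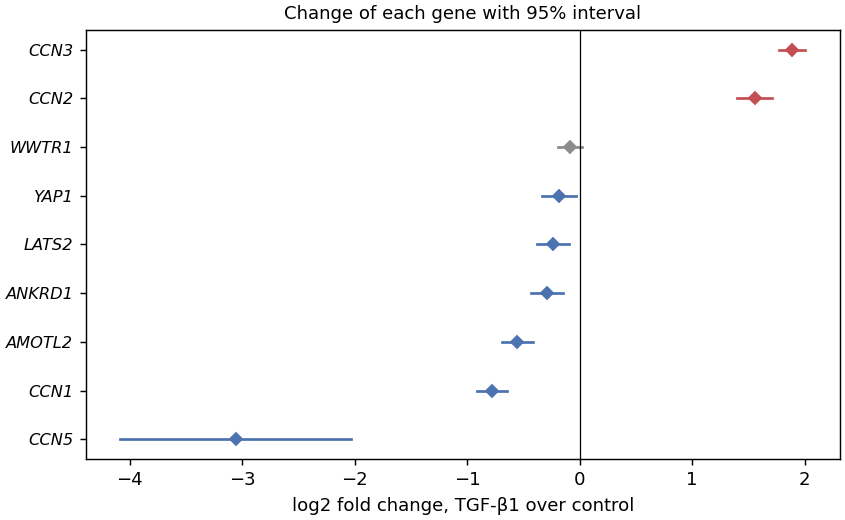
Log2 fold change (TGF-β1 over control) of the 9 genes tested, with 95% intervals derived from the edgeR F test. Red genes were called higher, blue genes lower and the gray gene, WWTR1, was not called. CCN2 and CCN3 stand to the right of 0, and CCN5 has the widest interval.

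Counted together, 9 of the 10 genes were tested, of which 2 were higher, 6 lower and 1 not called. Over all genes tested, 44.3% were called in either direction. The 9 genes include CCN5, which passed the filter only through the control group, and all were chosen with earlier results of these data known. The median of the 9 log2 changes was -0.24, beside 0.0063 for all genes. At least a 2-fold change was reached by CCN2, CCN3 and CCN5, beside 3.68% of all genes for rises and 5.38% for falls. By CPM alone, 2 of the genes were higher and 7 lower with no overlap between groups, beside 27.9% and 27.7% of all genes tested.

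The order of the genes by level also changed. In control it ran CCN1, CCN2, WWTR1, CCN3, AMOTL2, ANKRD1, YAP1, LATS2, CCN5 and CCN4 by mean TPM, with overlapping ranges only for the neighbors CCN2 and WWTR1. After TGF-β1 it ran CCN1, CCN2, CCN3, WWTR1, AMOTL2, ANKRD1, YAP1, LATS2, CCN5 and CCN4, with overlapping ranges only for ANKRD1 and YAP1. CCN3 thus passed WWTR1. Among all named genes, the rank of CCN2 by TPM went from 768 to 220, that of CCN3 from 1186 to 254 and that of CCN1 from 81 to 142.

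A wider list of 22 conserved YAP/TAZ targets includes CCN1, CCN2, ANKRD1, AMOTL2 and LATS2. All 22 were tested, and 15 were lower, 6 higher and 1 not called, beside 22.1% and 22.2% of all genes. Of the 17 targets other than those 5, 11 were lower and 5 higher. Their median log2 change was -0.34, beside 0.0063 over all genes tested.

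Outside the 10 genes, the steepest falls of that list were in membrane and coagulation genes. MYOF, a ferlin of membrane repair, went from 676, 661 and 686 CPM to 267, 321 and 325 CPM (log2 change -1.15, edgeR adjusted p = 4.7e-07). AXL, a receptor tyrosine kinase for GAS6, went from 562 ± 20.1 to 279 ± 6.20 CPM (log2 change -1.01). F3, tissue factor, went from 35.5 ± 3.35 to 21.2 ± 0.987 CPM (log2 change -0.74).

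The targets that rose beside CCN2 were led by IGFBP3, a secreted binding protein of insulin-like growth factors. It went from 93.2, 91.9 and 84.6 CPM to 243, 223 and 209 CPM (log2 change 1.33, edgeR adjusted p = 6.4e-08). FOXF2, a forkhead factor of mesenchyme, went from 1.68 ± 0.141 to 3.21 ± 0.506 CPM (log2 change 0.94, edgeR adjusted p = 0.00153). PTPN14, a phosphatase that binds YAP, went from 453, 436 and 439 CPM to 575, 815 and 840 CPM (log2 change 0.75, edgeR adjusted p = 0.00525), with TGF-β1 replicate 1 the lowest of its group.

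**Figure D4:**
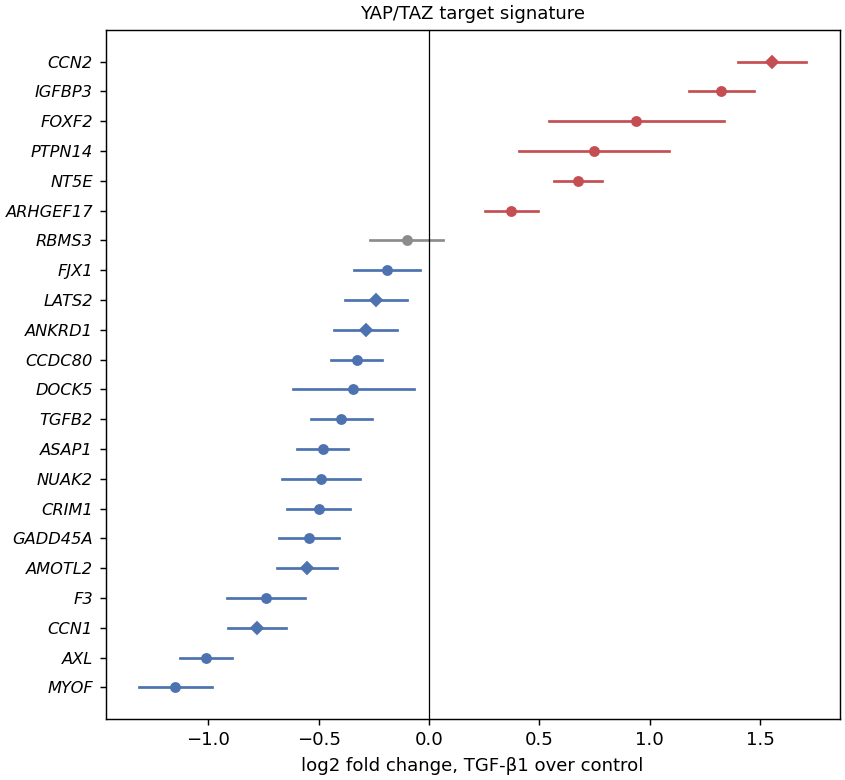
Log2 fold change (TGF-β1 over control) with 95% intervals for the 22 targets of the YAP/TAZ list, sorted by size. Diamonds mark CCN1, CCN2, ANKRD1, AMOTL2 and LATS2. Of the 22 targets, 15 are blue (lower), 6 red (higher) and 1 gray (not called).

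In the kinase cassette that acts on YAP and TAZ, all 11 genes were tested, and 5 were lower, LATS2 included, 1 was higher and 5 were not called, beside 22.1% lower and 22.2% higher of all genes. The median log2 change was -0.05, and 0.0063 over all genes. SAV1, the scaffold of the cassette, had the largest fall, from 91.4, 87.4 and 87.3 CPM to 51.5, 54.7 and 53.3 CPM (log2 change -0.74, edgeR adjusted p = 1.3e-06). The kinases STK3 and STK4 (MST2 and MST1) fell by 0.33 and 0.30 on the log2 scale (edgeR adjusted p = 0.00116 and 0.00225).

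MAP4K4, a kinase that can also phosphorylate LATS proteins, was the gene called higher. It went from 172, 170 and 162 CPM to 197, 222 and 223 CPM (log2 change 0.35, edgeR adjusted p = 8.3e-04). Without TGF-β1 replicate 1, 4 genes of the cassette were called higher and 5 lower, beside 23.5% and 24.2% of all 15106 genes in that fit.

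Upstream and junctional regulators moved in both directions. Of 18 genes, 17 were tested, and 5 were higher, 7 lower, AMOTL2 included, and 5 not called, beside 22.2% and 22.1% of all genes. Their median log2 change was -0.28, beside 0.0063 over all genes. Without AMOTL2, 5 of 16 were higher and 6 lower, and the median was -0.15. AMOTL2 (lower) and PTPN14 (higher) are also counted in the wider list of targets. DLG5, whose name has 2 entries, was below the filter on its primary entry (0 and 4 reads). With the entries of a name summed, all 18 genes were tested, and 5 were higher and 7 lower. FRMD6 (Willin), a FERM protein that can activate the kinase cassette, had the largest rise of this list. It went from 371, 370 and 361 CPM to 1181, 1403 and 1447 CPM (log2 change 1.87, SE 0.08, edgeR adjusted p = 1.3e-08).

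AMOTL1, a paralog of AMOTL2, rose from 47.4 ± 0.972 to 64.5 ± 7.72 CPM (log2 change 0.44, edgeR adjusted p = 0.00138) while AMOTL2 fell. WWC2 was called higher (log2 change 0.27, edgeR adjusted p = 0.0198), but the call was lost with total counts only and without any control library, TGF-β1 replicate 2 or TGF-β1 replicate 3.

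The falls were led by FAT4, an atypical cadherin, which went from 35.7, 34.8 and 34.7 CPM to 11.4, 16.0 and 16.1 CPM (log2 change -1.28, SE 0.12, edgeR adjusted p = 1.8e-05). WWC1 (KIBRA), a WW domain scaffold of the pathway, went from 207 ± 12.5 to 126 ± 3.12 CPM and its log2 change was -0.71. AJUBA, a LIM protein that inhibits LATS kinases, also had a log2 change of -0.71. CRB3, an apical polarity protein, had a log2 change of -0.60 (edgeR adjusted p = 4.6e-04).

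**Figure D5:**
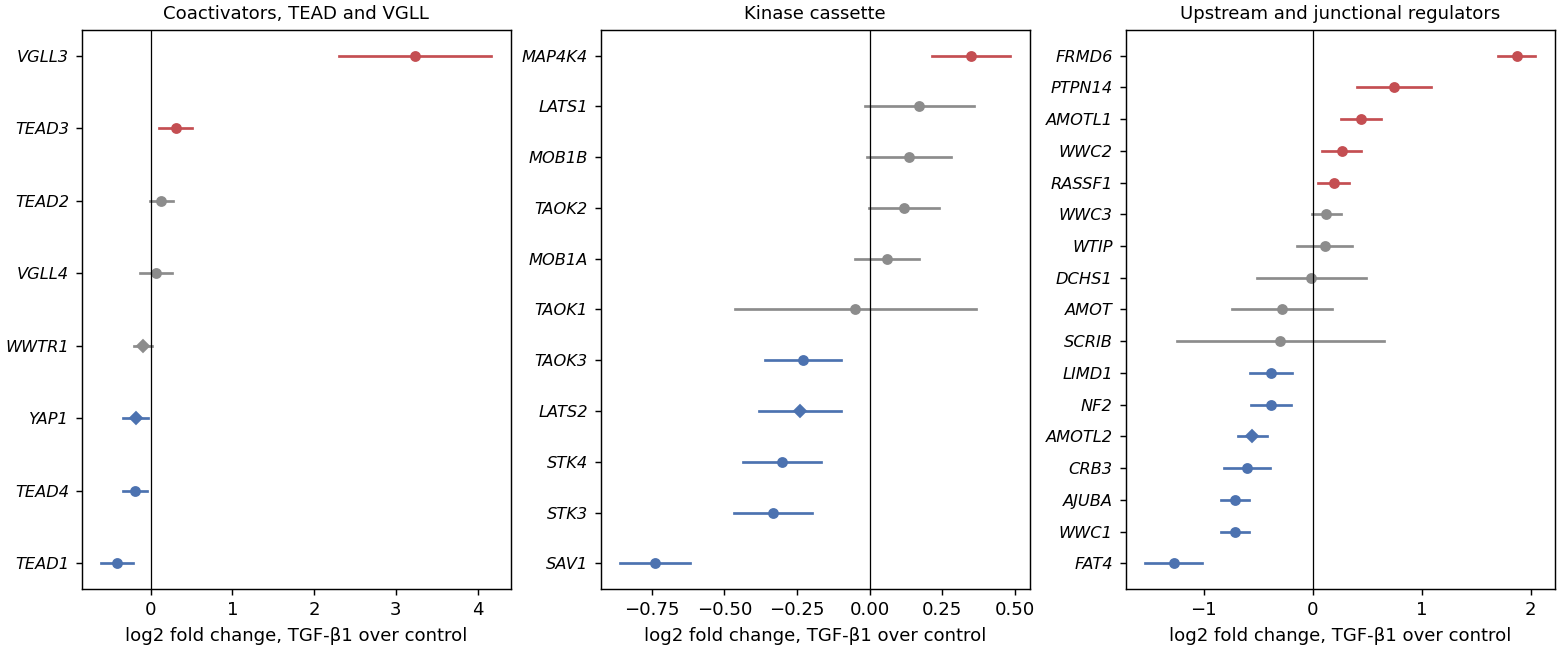
Log2 fold change (TGF-β1 over control) with 95% intervals for the tested genes of 3 lists, each panel with its own scale. Red genes were called higher, blue lower and gray not called, and diamonds mark YAP1, WWTR1, AMOTL2 and LATS2. FRMD6 and VGLL3 have the largest rises and FAT4 the largest fall.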

How the data were processed

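RNA-seq libraries of HK-2 cells, 3 control and 3 TGF-β1, were made from oligo(dT)-captured mRNA with random hexamers. The authors filtered adapter and low-quality reads. The submitters' processing notes list CASAVA, featureCounts 2.0.1, DESeq2 1.16.1 and hg38. The aligner, annotation release and strand setting are not given in the sources used here. Per the file headers, the deposited tables hold raw counts per gene, with TPM and FPKM computed by the authors. FPKM was not used. TPM recomputed from counts and lengths differed by at most 3.6e-06. In each table, 7 records split across lines were joined again.

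Counts of 41497 named entries were used. The 598 loci without a name held 0.396% to 0.464% of counts and were left out of library sizes and tests. Groups came from the labels. Genes passing filterByExpr (minimum count 10) of edgeR 4.0.16, 14860 in all, were compared with the robust quasi-likelihood F test after TMM scaling, with Benjamini-Hochberg adjustment over all of them and a threshold of 0.05. Ratios and shares were compared by two-sided exact permutation tests. Read-ratio intervals are exact at 95% and cover counting error only. Alternatives were DESeq2 1.42.0, limma-voom (limma 3.58.1), RLE size factors, total counts only, other filters (all genes with a count, or a mean of at least 50), summed entries of a name, a block by replicate number and single libraries left out. R 4.3.3 and Python 3.11.15 were used, and the fits were tested on simulated data. The members and lists were chosen with earlier results of these data known. Beside the members and CCN6, up to 4 called rises and 4 called falls of the largest size were named per pathway list (mean of at least 1 CPM), with each TEAD and VGLL gene. Motifs were searched as exact letters.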

Additional observations from a re-analysis of the deposited data

How the results depend on the processing

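Of 39 named genes tested, 32 kept the same call and direction in every alternative that could be run, at most 14 a gene. The call changed in some for YAP1, WWTR1, TEAD3, TEAD4, WWC2 and LRP1. Scaling by total counts only ended the call of LRP1 (0.14), as did leaving out control replicate 2 (0.23), and turned the sign of VGLL4, which was called in no fit, to -0.040. CCN5 and VGLL3 could not be tested at a mean of at least 50 counts. Genes called numbered 3294 higher and 3288 lower, and 2134 higher and 4590 lower with total counts only. The count of called coactivator, TEAD and VGLL genes ranged from 2 to 5 over the fits that each left out 1 library. The cause of these changes was not tested.

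A replicate block gave 6790 called genes, 3396 higher and 3394 lower, against 6582 without it, and 8 members called in both fits. It changed no call of a named gene. No clear pairing of the libraries by number was seen. Same-numbered control and TGF-β1 libraries had correlations of 0.11, -0.012 and 0.076 of their deviations from the group means. Control replicate 2 correlated best with TGF-β1 replicate 1 (0.044), and control replicate 3 and TGF-β1 replicate 2 correlated best with each other (0.088). With 3 libraries a group, correlations this weak cannot settle whether the libraries were paired. With differences of same-numbered libraries under the block, the ratio of CCN2 to CCN1 differed by 2.34 and that of WWTR1 to YAP1 by 0.098 (exact permutation p = 0.25 each, the smallest for 3 pairs). Leaving out 1 library gave 2.31 to 2.38 and 0.029 to 0.14. CCN4 gave no ratio without TGF-β1 replicate 2, as that group then had 0 reads. The log2 difference of the summed CCN level was 0.019 in TPM and 0.17 in TMM-scaled CPM, an alternative chosen after seeing the data, and -0.0070 to 0.042 in TPM with 1 library left out. Depth limits CCN4, CCN5, CCN6 and VGLL3, which rest on few reads.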
